A study of Mus musculus with 3 samples.

Results

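The distal part of mouse chromosome 4 between 145 and 148 Mb (build mm9) is a block of closely packed HIF1A ChIP-seq peaks, and its first 2 Mb were the autosomal 1 Mb windows with the most peaks in both deposited lists. The block was taken as all peaks whose start lies between positions 145000000 and 147999999, which gave 100 of the 3055 peaks of replicate 1 (3.27%) and 161 of the 2680 peaks of replicate 2 (6.01%), 261 of 5735 in all. The stretch was chosen by the number of peaks per Mb in these same lists, so its density and the caller's values are described without a test. It was also picked as a duplicated region, which could not be checked here without an mm9 sequence.

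HIF1A was precipitated from cells of the immortalized melanocyte line melan-Ink4a-Arf-null, made from Cdkn2a tm1RDp/tm1RDp mice, so every sample lacks functional Cdkn2a and comes from 1 cell line. All samples were grown with 10% fetal bovine serum, 200 nM TPA (a phorbol ester) and 200 pM cholera toxin, and were held in 1% oxygen for 24 hours before crosslinking. The groups were 2 HIF1A ChIP replicates and 1 input, with no normoxic sample analysed here. Nothing in the labels places the replicates in separate cultures, so differences between them may be technical. Peak lists hold no expression values, so the cells' melanocyte identity was not checked.

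HIF1A is the oxygen-regulated subunit of the transcription factor HIF-1. It is hydroxylated and degraded when oxygen is plentiful, accumulates in hypoxia, pairs with ARNT and binds DNA at hypoxia response elements, where it activates genes of glycolysis, angiogenesis and red cell production. The distal part of mouse chromosome 4 is known for a large cluster of related KRAB zinc finger genes, whose products silence transposable elements, with many near-identical copies of genes and repeats. Reads from such copies are hard to place, and the peaks below were not assigned to any gene because no mm9 annotation was at hand.

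Depth was 94716495 tags in replicate 1, of which 76075544 (80.3%) were unique, and 103139204 in replicate 2, of which 86978508 (84.3%) were unique. The control library was common to both calls and had 98309297 tags (66.4% unique). Spread evenly over the caller's effective genome of 1.87 Gb, the unique tags would give 40.7 and 46.5 tags per kb in replicates 1 and 2. These values are used below as the genome mean. The fragment size that the caller estimated was 68 bp in replicate 1 and 53 bp in replicate 2. Both estimates lay far below the library fragments of 200 to 500 bp that the labels give.

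Peaks filled the proximal part of the block and left its end almost empty. From 145 to 146 Mb there were 39 peaks in replicate 1 and 71 in replicate 2, and from 146 to 147 Mb there were 54 and 77. These were the leading 2 autosomal windows in both lists. The last Mb had 7 and 13. The neighbouring windows were thinly filled, with 1 and 2 peaks from 144 to 145 Mb and 3 and 2 from 148 to 149 Mb.

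The edges of the block differed in kind. The peak just outside the proximal edge in replicate 1, at chr4:144784527-144785254, had 159 tags at the caller's 4.53-fold enrichment, and the one just inside, at chr4:145003361-145003596, had 26 tags at 5.78-fold. In replicate 2 the peak just outside, at chr4:144998581-144998770, had 26 tags at 5.27-fold. The one just inside, at chr4:145019661-145019848, had 25 at 5.68-fold, and the 2 starts lay 21080 bp apart. The peaks on either side of the chosen edge were thus alike in replicate 2. The distal edge was clean in both lists. The last block peak lay at chr4:147461835-147462524 in replicate 1 (157 tags, 5.52-fold) and at chr4:147461988-147462462 in replicate 2 (96 tags, 3.53-fold). The next peak, 716044 and 716037 bp further on, was much stronger, with 508 tags at 18.13-fold in replicate 1 and 308 at 10.17-fold in replicate 2 (chr4:148177879-148179091 and chr4:148178025-148178744).

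Peaks covered 61.0 kb of the 3 Mb in replicate 1 (2.03%) and 69.2 kb in replicate 2 (2.31%). They held 9011 and 11942 tags, which is 1.96% and 3.45% of all tags inside peaks of the respective list. Replicate 2 thus had 1.61 times as many peaks in the block as replicate 1, whereas its whole list was shorter (0.877 times). The same ratio was 0.564 in sparse autosomal windows, which are the 1 Mb windows with fewer than 8 peaks in both lists and held 1789 and 1009 peaks. In the stretch of X from 120 to 123 Mb, the other large block of packed peaks, it was 1.49, and in the packed stretch of chromosome 13 from 21 to 24 Mb it was 0.494.

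**Figure D1:**
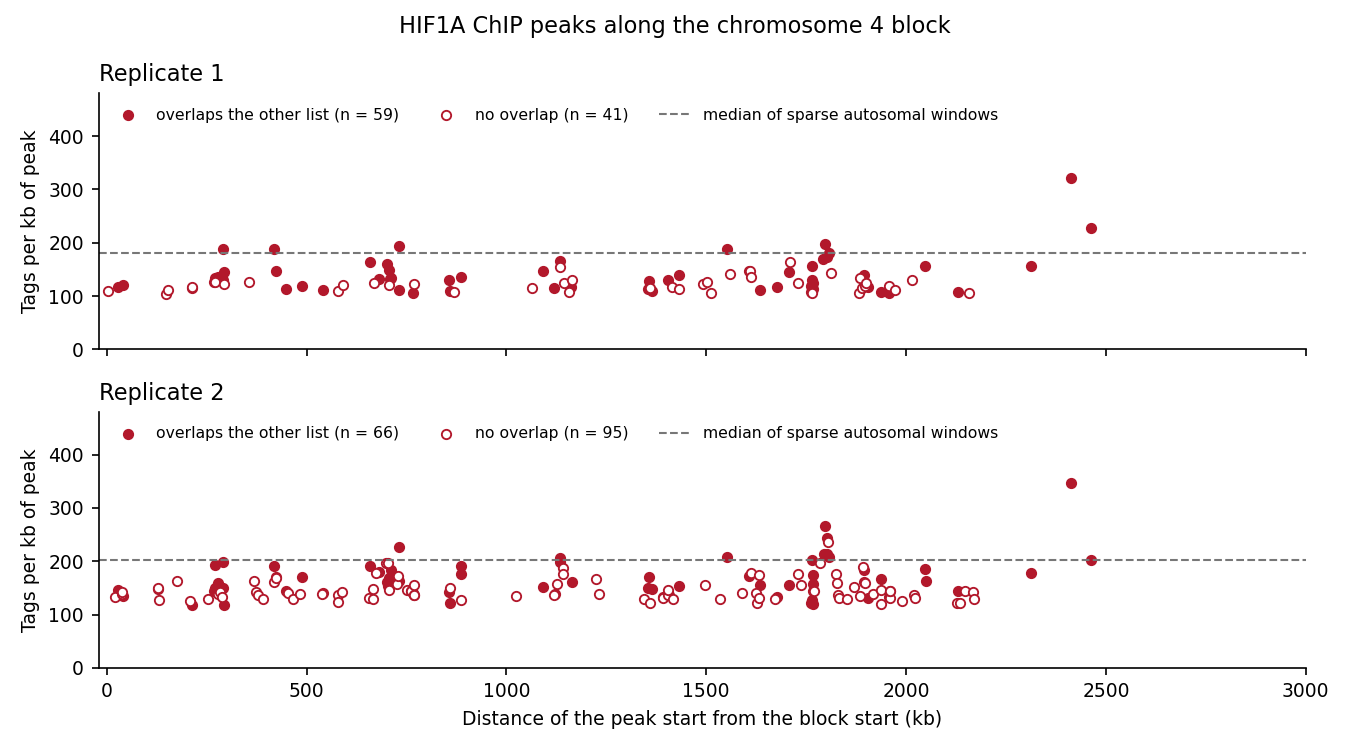
Tags per kb of each peak against the distance of its start from the start of the block in kb, for replicate 1 (above) and replicate 2 (below). Filled points share at least 1 bp with the other replicate's peaks, open points do not, and the dashed line is the median of sparse autosomal windows. Most points lie below the line, and only 3 peaks of each list lie to the right of the widest gap.

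Within the block the peaks came in groups. Of 30 bins of 100 kb, 23 held a peak, and 22 of these held peaks of both lists. Replicate 2 had more peaks than replicate 1 in 19 of the 23, as many in 3 and fewer in 1. The fullest bins, with 27 peaks of both lists together, began at 145700000 and 146700000. In the first, 9 peaks of replicate 1 and 18 of replicate 2 lay between positions 145702290 and 145770244, and in the second, 13 and 14 lay between 146705925 and 146798561.

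Merging overlapping peaks of both lists gave 194 regions, of which 58 (29.9%) were found in both lists, 41 in replicate 1 alone and 95 in replicate 2 alone. Merged in the same way, 38.6% of 2006 regions in sparse windows and 45.9% of 3747 over the whole lists were found in both. The median gap between neighbouring regions was 3902 bp. Of 193 gaps, 133 were under 10 kb and 12 were over 50 kb. The widest were 142525 bp (from 147170170 to 147312696), 136185 bp (from 145887891 to 146024077) and 111577 bp (from 146233111 to 146344689).

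Runs of at least 5 regions with gaps under 10 kb numbered 14 and took in 100 of the 194 regions. In the proximal Mb they lay at chr4:145019661-145040109, chr4:145269323-145295082, chr4:145578742-145592173, chr4:145656913-145680767, chr4:145699416-145711730 and chr4:145752356-145770244. Further along they lay at chr4:146118914-146144766, chr4:146344689-146364279, chr4:146403400-146417921, chr4:146625688-146634473, chr4:146761023-146769616, chr4:146784121-146813267, chr4:146882187-146904040 and chr4:146956298-146961176. The replicates agreed unevenly over these runs. In the run at 145269323, 6 of 11 regions were in both lists, and in the one at 146761023, 5 of 9. In the run at 145578742, 0 of 5 were, although each list had peaks in it (2 and 3).

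Block peaks were thin and short compared with those in sparse windows. A block peak held a median of 52.5 tags in replicate 1 (quartiles 39 and 99) and 44 in replicate 2 (30 and 74). The sparse windows had 117 (67 and 172) and 95 (44 and 153), so the block median was 0.449 and 0.463 times theirs. Median length was 429.5 bp in the block against 603 bp in replicate 1, and 314 bp against 468 bp in replicate 2. The interquartile ranges of tags and of length overlapped between block and sparse windows in both lists. In the best 50% of each list by score the block median of length was 0.982 times that of sparse windows in replicate 1 and 1.09 times in replicate 2, and the ratios for tags were 0.648 and 0.761.

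Tags per kb overlapped less. The block medians were 124 in replicate 1 (quartiles 114 and 144) and 146 in replicate 2 (135 and 171), which is 3.05 and 3.14 times the genome mean. Sparse windows had 181 (144 and 226) and 202 (162 and 248), or 4.46 and 4.34 times the genome mean. In replicate 1 the upper quartile of the block, before rounding, stood just under the lower quartile of the sparse windows. Length did not remove the gap: among peaks of 300 to 600 bp the medians were 122 against 159 in replicate 1 (n = 50 and 751) and 154 against 199 in replicate 2 (n = 58 and 424). Fold enrichment did not show it. Its median was 4.82 in the block and 4.85 in sparse windows in replicate 1, and 4.99 against 4.92 in the other replicate. The background behind each fold is not stated in the headers, and may not be the same for all peaks (see the grid of fold values below).

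**Figure D2:**
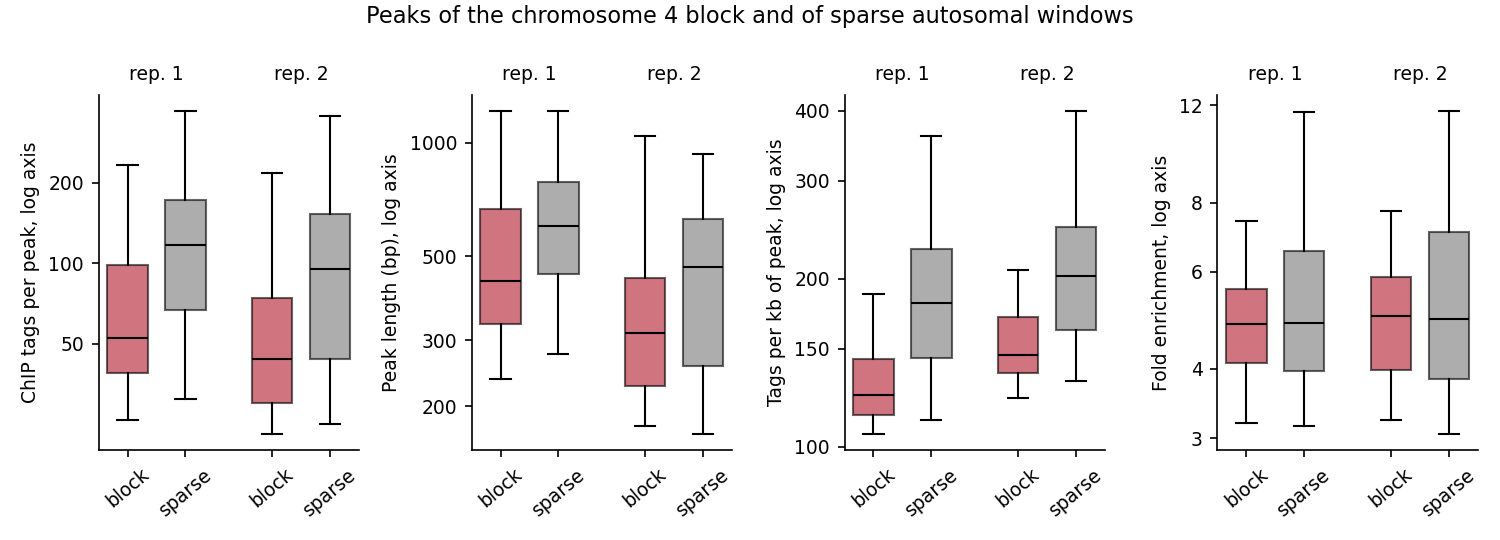
Tags per peak, peak length in bp, tags per kb and fold enrichment (all on log axes) for block peaks and sparse-window peaks of each replicate (rep.). Boxes span the quartiles with the median as a line, and whiskers run from the 5th to the 95th percentile of peaks. Block medians are lower for the first 3 measures, while for fold they are 4.82 against 4.85 and 4.99 against 4.92.

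Block peaks therefore crowded near the low end of each list. The 5% of each list with the fewest tags per kb held 20 of the 100 block peaks of replicate 1 (20.0%, 95% exact binomial interval 12.7 to 29.2%, against 5.01% of the whole list). In replicate 2 it held 36 of 161 (22.4%, 16.2 to 29.6%, against 5.00%). The p-based score, 10 times -log10 of the caller's p, had block medians of 77.81 and 70.03 in replicates 1 and 2, where the calling threshold is 50. In sparse windows the medians were 102.82 and 97.07. The caller's false discovery rate was 100% for 74 block peaks of replicate 1 (74.0%, against 54.3% of the whole list) and for 124 of replicate 2 (77.0%, against 54.7%). It was high for the others too. Among the paired block peaks described below, the lowest rates were 24.76% in replicate 1 and 61.68% in replicate 2. The block peak of highest score in replicate 2 (825.49) had 75.81%. Intervals cover counting error only, and neighbouring peaks may not be independent.

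The X block and the chromosome 13 stretch were unlike the block in some measures and like it in others. In the X block the median tags per kb was 172 in replicate 1 and 222 in replicate 2, with median folds of 6.05 and 6.50. Its peaks were about as short as those of the chromosome 4 block, with median lengths of 466 and 311 bp, and held medians of 79 and 73 tags, also below the sparse windows. On chromosome 13 the median tags per kb was 185 in replicate 1 and, close to the block's, 156 in replicate 2, with medians of 98 and 52.5 tags and median folds of 9.52 and 6.08. Other autosomal windows with many peaks were not compared. The lowest 5% of the list by tags per kb held 1.62% and 0.649% of the X block's peaks, and 0 of 85 and 0 of 42 of those on chromosome 13 (upper 95% limits 4.25 and 8.41%). Spacing also set the X block apart from the chromosome 4 block. The median distance from one peak start to the next was 9944 bp in replicate 1 and 5440 bp in replicate 2 on chromosome 4, against 1259 and 798 bp in the X block and 4612 and 6032 bp on chromosome 13. In sparse windows it was 568120 and 1144944 bp, a contrast set by the choice of block and sparse windows by peak density. Over the whole lists it was 105317.5 bp in replicate 1 and, as in the block, 5440 bp in replicate 2.

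Fold values in the block often stood on a fixed grid. Effective genome size divided by fragment size and unique tags, all from the headers, gives 0.3615 for replicate 1 and 0.4057 for replicate 2, which is the fold of 1 tag over an evenly spread background. Of the block's folds, 45 of 100 in replicate 1 (45.0%, 35.0 to 55.3%) were whole multiples of this unit to within 0.0051, against 15.1% of the whole list and 12.6% in sparse windows. In replicate 2 it was 58 of 161 (36.0%, 28.6 to 44.0%), against 18.5% of the list and 20.5% in sparse windows. The block was not alone in this: on chromosome 13 the shares were 40 of 85 (47.1%) and 25 of 42 (59.5%), while in the X block they were 10.3% and 8.86%. Evenly spread values would meet the tolerance in 2.8% and 2.5% of cases. MACS is understood to divide the tag pile-up at a summit by the larger of the genome-wide and the local control background, so a fold on the grid would mark a peak where the genome-wide value was used. The headers do not state this rule.

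Short peaks often stood on the grid. Of block peaks under 300 bp, 16 of 21 in replicate 1 (76.2%, 52.8 to 91.8%) and 46 of 76 in replicate 2 (60.5%, 48.6 to 71.6%) stood on it. The sparse windows had 62.5% and 52.3% at that length, inside these intervals. Among peaks of 300 to 600 bp, the block had 24 of 50 (48.0%, 33.7 to 62.6%) in replicate 1 against 14.8% in sparse windows, and 7 of 58 (12.1%, 4.99 to 23.3%) in replicate 2 against 9.43%. At this length the shares were thus further apart in replicate 1. In replicate 2 the interval, which covers counting error only, held the value of the sparse windows. Above 600 bp the block had 5 of 29 (17.2%, 5.85 to 35.8%) in replicate 1 against 3.85% in sparse windows. In replicate 2 it had 5 of 27 (18.5%, 6.30 to 38.1%) against 3.83%, so both sparse-window values lay below the intervals at that length. Block peaks on the grid had medians of 40 and 30.5 tags in replicates 1 and 2, and those off it 65 and 59.

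Of replicate 1's block peaks, 59 of 100 overlapped a replicate 2 peak by at least 1 bp (59.0%, 48.7 to 68.7%, where 58.1% of its whole list did). Of replicate 2's, 66 of 161 did (41.0%, 33.3 to 49.0%, where 72.2% of its whole list did). The order of the replicates was the opposite in sparse windows, where the shares were 43.4% in replicate 1 and 78.3% in replicate 2. Overlapping peaks were similar in number in both lists there (777 and 790), as in the block. The opposite order thus largely restates the peak numbers, 1789 and 1009 in sparse windows against 100 and 161 in the block. In the X block the shares were 92.7% and 73.5%, and on chromosome 13 they were 43.5% and 100%.

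Below a score of 200 these differences were also present within score classes. In each of those classes the block had more peaks in replicate 2, and the sparse windows had more in replicate 1. Among peaks scoring 50 to 75, 21 of 46 block peaks of replicate 1 were shared (45.7%, 30.9 to 61.0%) against 18.9% in sparse windows, whereas in replicate 2 it was 26 of 93 (28.0%, 19.1 to 38.2%) against 55.2%. Among those scoring 100 to 200, it was 13 of 18 (72.2%, 46.5 to 90.3%) against 42.7% in replicate 1, and 14 of 25 (56.0%, 34.9 to 75.6%) against 93.2% in replicate 2. At 200 and above the block did not stand apart: 13 of 14 peaks were shared in replicate 1 (92.9%, 66.1 to 99.8%) against 83.9% in sparse windows, and 13 of 13 in replicate 2 (lower limit 75.3%) against 206 of 208. The peak not shared was the longest peak of the block, at chr4:146708775-146712706 in replicate 1.

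**Figure D3:**
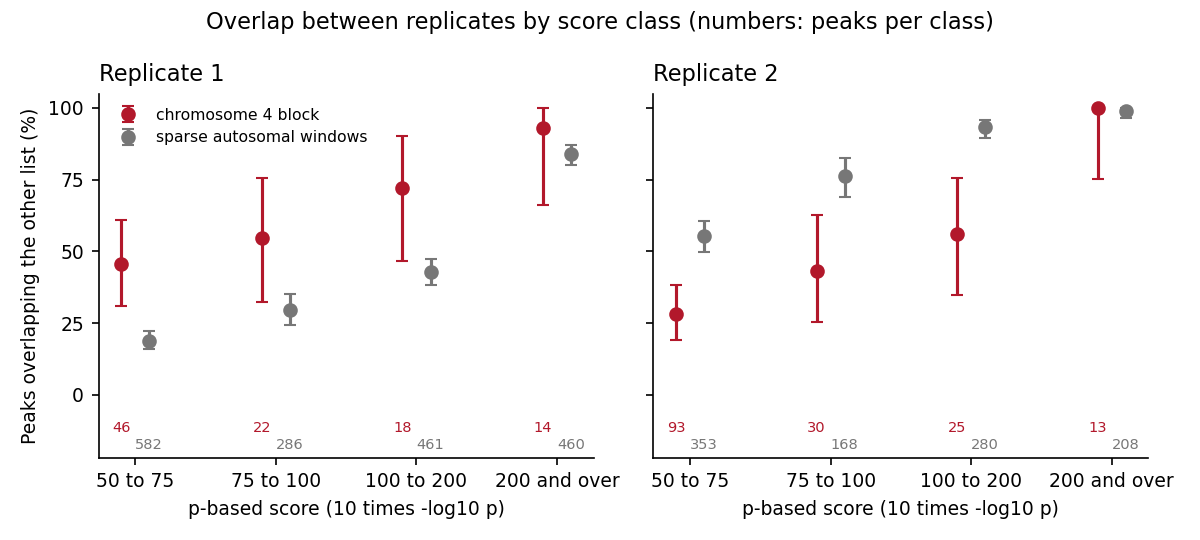
Percent of peaks that overlap the other list, by class of p-based score, for the chromosome 4 block (red) and sparse autosomal windows (grey) in each replicate. Bars are exact 95% binomial intervals and the numbers under the points count the peaks per class. The block lies above the sparse windows in replicate 1 and below them in replicate 2 up to a score of 200. In those classes the block has more peaks in replicate 2, and the sparse windows have more in replicate 1.

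At matched length the shares of block and sparse windows lay further apart above 300 bp than below it. Under 300 bp, 8 of 21 block peaks were shared in replicate 1 (38.1%, 18.1 to 61.6%) against 39.8% in sparse windows, and 23 of 76 in replicate 2 (30.3%, 20.2 to 41.9%) against 40.9%. Of replicate 2's block peaks of 300 to 600 bp, 23 of 58 were shared (39.7%, 27.0 to 53.4%), against 91.7% of sparse-window peaks of that length. Above 600 bp, 20 of 27 were shared (74.1%, 53.7 to 88.9%), against 97.2%. In replicate 1 the block's share was 60.0% at 300 to 600 bp and 72.4% above, against 33.3% and 52.3% in sparse windows.

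Unshared block peaks were often near a peak of the other list. The median distance was 1828 bp for the 41 of replicate 1 and 3810 bp for the 95 of replicate 2, with 11 and 22 of them within 1000 bp. In sparse windows the medians were 585579 and 444716 bp. These distances are a description, since block peaks lie close together by the choice of the block. Unshared block peaks had medians of 43 and 39 tags in replicates 1 and 2, and shared ones had 62 and 65.5. The unshared peaks of highest fold had 26 to 88 tags. In replicate 1 they lay at chr4:146414777-146415051 (32 tags, 6.15-fold), chr4:146812655-146813267 (88 tags, 5.91-fold) and chr4:145003361-145003596 (26 tags, 5.78-fold). In replicate 2 they lay at chr4:145127304-145127547 (36 tags, 8.11-fold), chr4:146830049-146830239 (26 tags, 7.71-fold) and chr4:145176910-145177162 (41 tags, 7.68-fold).

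Mutual best overlaps gave 58 pairs in the block. Values of the pairs ran together across sites, with a Spearman's rho of 0.83 for tags, 0.73 for fold and 0.80 for length. The 2 values of a pair share a site and a control library, and the sites are not independent samples. In sparse windows rho was 0.87, 0.68 and 0.79 over 775 pairs. The tags of a paired block peak had a median ratio of replicate 2 to replicate 1 of 1.02, while paired peaks of sparse windows had 0.773. The ratio was 1.14 in the X block and 0.435 on chromosome 13. Peaks were shorter in replicate 2 for 43 of the 58 pairs. The same held for 690 of 775 pairs in sparse windows and 1439 of 1742 over the whole lists, so this was not particular to the block.

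**Figure D4:**
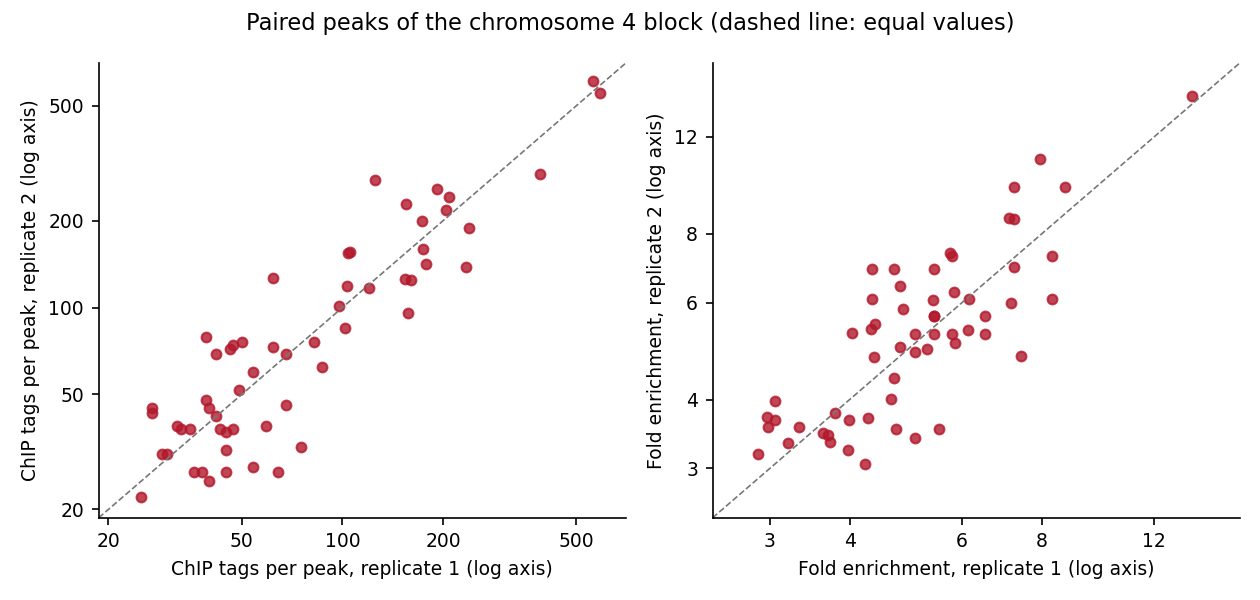
Tags per peak (left) and fold enrichment (right) of the 58 paired block peaks in replicate 2 against replicate 1, both on log axes, with 1 point per pair and a dashed line at equal values. The points scatter around the line over the range of tags, and 1 pair stands apart at 13.74-fold and 14.20-fold.

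By their medians, summits of block pairs lay farther apart than in the other sets compared. They lay a median of 85 bp apart in the block (lower quartile 24.5, upper quartile 205.8 bp). For 20 of 58 pairs (34.5%) the distance was at most 50 bp. In sparse windows the median was 27 bp, and 68.1% reached that mark. The X block had 22 bp and chromosome 13 had 29 bp. The upper quartiles were 68 bp in sparse windows, 154.2 bp in the X block and 54 bp on chromosome 13.

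The pair of highest fold had 103 tags over 550 bp at 13.74-fold in replicate 1 (chr4:145291218-145291767) and 119 tags over 597 bp at 14.20-fold in replicate 2 (chr4:145291076-145291672). Its summits were 2 bp apart, and the next highest folds among the pairs were 8.68 in replicate 1 and 10.95 in replicate 2. A smaller peak beside it, at chr4:145292057-145292388, had 43 and 38 tags at 8.68-fold and 9.74-fold, with summits 3 bp apart. These neighbours had the closest summits of the 6 pairs leading by fold.

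The site at chr4:146764848-146765644 in replicate 1 had 125 tags at 7.95-fold. In replicate 2 it was longer, chr4:146764705-146766073, with 276 tags at 10.95-fold and the highest p-based score of the block (825.49). Length, tags and fold were thus all higher in replicate 2. The pair at chr4:145886722-145887488 had 104 tags at 8.31-fold in replicate 1 and 155 at 7.30-fold in replicate 2, with summits 846 bp apart.

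Of the 6 pairs with the most tags, 3 had low fold. At chr4:146793384-146796871, replicate 1 had 590 tags over 3488 bp at 3.99-fold, and replicate 2 had 552 over 2595 bp at 3.67-fold. At chr4:146801499-146804740, replicate 1 had 562 tags over 3242 bp at 2.87-fold, and replicate 2 had 611 over 2850 bp at 3.18-fold. The same run also held the shorter pair at chr4:146807168-146808494. It had 239 and 189 tags over 1327 and 908 bp, at 3.72-fold and 3.35-fold. The other 3, beginning at 147412301, 145730321 and 145418231, were 835 to 1356 bp long with folds of 4.80 to 8.55, and are among the long high-score sites.

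Long peaks of low fold were not always called in both lists. The peak at chr4:146708775-146712706 had 643 tags over 3932 bp at 3.26-fold and was called in replicate 1 alone. The peak at chr4:146804835-146807129 had 542 tags over 2295 bp at 2.29-fold and was called in replicate 2 alone. The run at chr4:146784121-146813267 thus had 1634 of the block's 9011 tags in peaks in replicate 1 and 2389 of 11942 in replicate 2. Its median tags per kb, 173 and 214, were the highest of the 14 runs, and its median folds of 3.72 and 3.31 the lowest or equal lowest.

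A further set of sites was picked by length and score. By a rule chosen after their values were seen, replicate 1 peaks of 900 to 1300 bp with a score of at least 300 numbered 7 in the block (4.91% of the whole list met the rule, and 2.57% of the replicate 2 list), all called in replicate 2 as well. The choice makes their replicate 1 values alike. In order, they began at 145418231, 145659849, 145730321, 146552901, 146705988, 147048363 and 147412301. The first 6 held 191, 173, 208, 204, 174 and 178 tags in replicate 1, at folds of 7.23, 7.23, 7.10, 5.28, 4.85 and 7.23. In replicate 2 they held 258, 200, 242, 217, 159 and 142 tags at folds of 6.96, 8.52, 8.55, 4.94, 5.83 and 9.74. The seventh had 390 and 290 tags at 7.42-fold and 4.80-fold. Replicate 2 lengths of the 7 sites ran from 763 to 1356 bp.

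Starts of the 7 sites differed between replicates by 7 to 329 bp, yet the summits of the first 6 lay 64 to 722 bp apart and those of the seventh 9 bp apart. Peaks of this length and score are common outside the block too, with 102 in the sparse windows of replicate 1, and peaks of 900 to 1300 bp made up 12.0% of replicate 1 peaks in both the block and the sparse windows. The sites at 145418231 and 146552901 also had a second replicate 1 peak at a similar distance, 6649 and 6618 bp distal by start, with 120 and 136 tags at 2.97-fold and 3.52-fold. In replicate 2 the first of these had a peak 6583 bp along, with 117 tags at 3.72-fold, and the second had none. The site at 145659849 had a small replicate 2 peak (30 tags) 6845 bp along, and at the remaining 4 no peak of either list began near that distance, although the 3932 bp peak beside the fifth site, which began 2787 bp along, spans it.

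**Figure D5:**
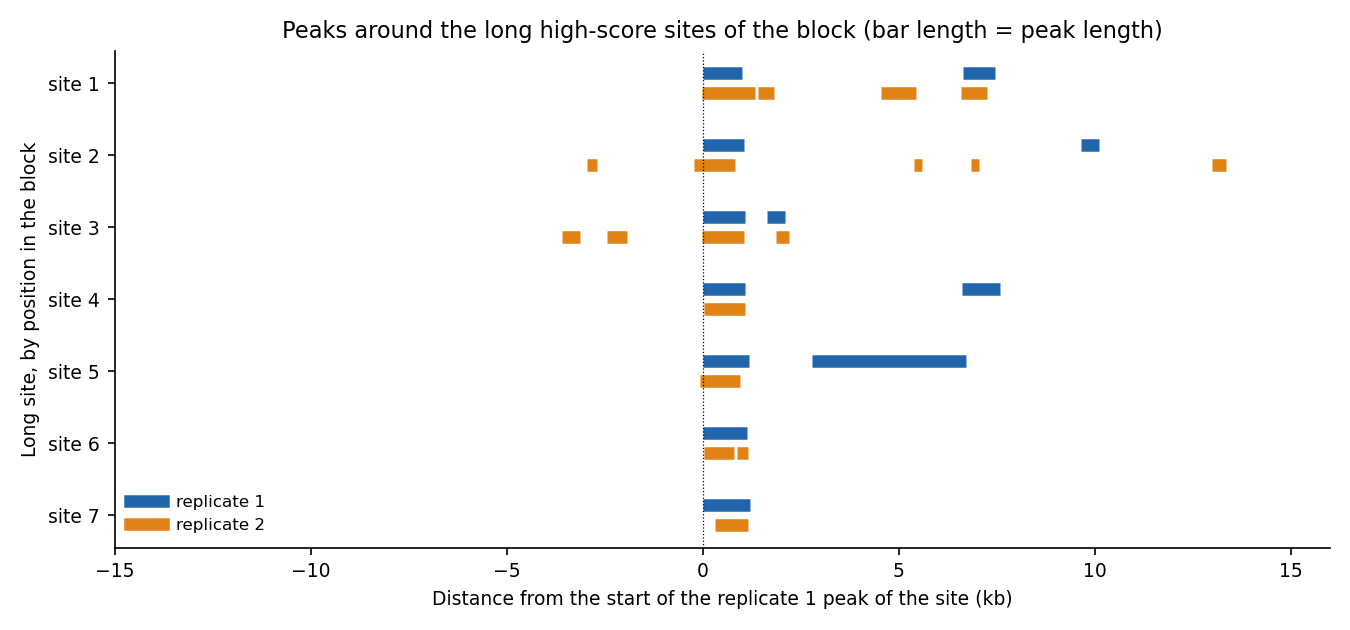
Peaks of replicate 1 (blue) and replicate 2 (orange) around the 7 long high-score sites of the block, placed by distance in kb from the start of the replicate 1 peak, with bar length equal to peak length. Sites 1 and 4 have a second replicate 1 peak 6649 and 6618 bp from the start, and site 5 has the 3932 bp peak beside it.

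The seventh long site belonged to a thin tail of 3 sites beyond the widest gap, all found in both lists. They were at chr4:147312696-147313250 (87 tags in replicate 1 and 62 in replicate 2), chr4:147412301-147413515 (390 and 290) and chr4:147461835-147462524 (157 and 96). Replicate 1 had 157, 321 and 228 tags per kb at these sites, and replicate 2 had 177, 347 and 202. The last 2 thus reached the sparse-window medians in both lists (in replicate 2 the last was 202, equal to the median after rounding), and all 3 had fewer tags in replicate 2, as most paired peaks of sparse windows did (182 of 775 had more).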

How the data were processed

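Peaks were called by the authors with MACS in Galaxy, separately for each ChIP library against 1 shared control, per the file headers. MACS 1.4.2 and build mm9 are named in the submitters' processing notes. No aligner is stated in the labels or headers. Settings were a p-value threshold of 1e-05, tag size 25 bp, band width 300 bp and model fold 10, per the file headers. The deposited lists give raw tag counts per peak, a p-based score, fold enrichment and a false discovery rate in percent. No input file was used here.

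Peaks were taken as deposited, with no filter. Tags per kb is tags over length. Overlap of at least 1 bp was checked with bedtools 2.31.1, intervals are exact (Clopper-Pearson, scipy 1.17.1), and functions were tested on simulated data. No test was run, because the block was picked for its peak density in these lists. Members, lists and comparisons were chosen with earlier results of these data known. Named sites are the 6 pairs leading by mean rank of fold and the 6 by tags, the 3 unshared peaks of highest fold per replicate, peaks at the edges, the fullest 100 kb bins, and runs of at least 5 regions. No sequence is shown, since an mm9 genome was not used here.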

Additional observations from a re-analysis of the deposited data

How the results depend on the processing

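Of 41 alternatives that keep both replicates, run over 7 results, 22 stayed within 1 SD of the 2 replicates (for summit distance, within its 95% interval of 63 to 162 bp). Ratios are block over sparse windows, averaged over both lists. The tags ratio, 0.456, was 0.471 with sparse windows of fewer than 5 peaks, 0.402 against chromosome 4 alone, 0.655 at 300 to 600 bp, 0.691 at a score of at least 100 and 0.702 in the best 50% by score. The length ratio, 0.691, was 0.637 against chromosome 4 alone and 0.992 at a score of at least 100, and it turned to 1.03 in the best 50% by score. The replicates went different ways there, where replicate 1 gave 0.908 and 0.982 for these settings and replicate 2 gave 1.08 and 1.09. The tags per kb ratio, 0.703, was 0.666 against chromosome 4 alone and 0.771 at 300 to 600 bp, and stayed below 1 in every alternative run. The fold ratio, 1.00, was 0.989, 0.987 and 0.968 with sparse windows of fewer than 5 peaks, of fewer than 12 and of chromosome 4 alone, 1.03 at 300 to 600 bp, 1.05 at a score of at least 100 and 1.05 in the best 50%. The spacing ratio, 0.00912, was 0.0278 at a score of at least 100 and 0.0271 in the best 50%, where fewer peaks remain. That this ratio is low follows from choosing both sets by peak density. The mean share of shared block peaks, 50.0%, was 36.5% with a reciprocal overlap of 50%. The cause of these changes was not tested. Leaving out 1 replicate at a time gave 0.449 to 0.463 for tags, 0.671 to 0.712 for length, 0.685 to 0.722 for tags per kb, 0.995 to 1.01 for fold, 0.00475 to 0.0175 for spacing and 41.0 to 59.0% for the share. No paired analysis was possible because the input has 1 sample and no file in use. No reads were used, so a site missing from a list cannot be told from one slightly below the calling threshold.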

Other observations

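A few block peaks had the same length and the same number of tags as another peak of the block. In replicate 1, 3 of the 100 peaks had such a match, at chr4:146512214-146512469, chr4:146957840-146958095 and chr4:147156813-147157068. Each was 256 bp long with 27 tags and a score of 53.24, and the folds were 4.34, 4.34 and 4.70. In replicate 2 there were 10 of 161 (6.21%), in 5 sets of 2. Sparse windows had 5.20% in replicate 1 and 6.05% in replicate 2, and the whole lists had 7.56% and 9.93%. Both have far more peaks to match than the block, so these shares cannot say whether matches are rarer or commoner in it.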
